A study of Mus musculus with 13 samples.

Results

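Receptor tyrosine kinases of hematopoietic stem and progenitor cells (HSPCs) are described here through 10 genes, Kit, Flt3, Met, Ptk7, Epha2, Tek, Tie1, Igf1r, Axl and Mertk. The members were a given list of names, looked up in the raw count table by matching its Ensembl identifiers to GENCODE M21 symbols, and all 10 were found among the 54838 genes of the table. A receptor tyrosine kinase spans the cell membrane, binds a ligand outside the cell, and on binding phosphorylates tyrosines that recruit adaptor proteins, exchange factors for Ras and lipid kinases. In bone marrow, the receptors for stem cell factor and FLT3 ligand support stem and progenitor cells, and angiopoietin receptors mark stem cells and blood vessels. Signals of many of these receptors pass through Ras, the protein that the Nras mutation in these mice keeps active.

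RNA was sequenced from 50000 sorted Lin-cKit+ bone marrow cells per mouse, in 13 mice of 4 groups. The 3 control mice carried Mx1-Cre alone, the 3 p53mut mice carried Mx1-Cre with p53 R172H/+, and the 3 NrasG12D mice carried Mx1-Cre with a mutant Nras allele that the titles spell G12D and the genotype field of their labels spells G21D/+. The 4 NPmut mice carried Mx1-Cre, p53 R172H/+ and Nras G12D/+. Mice of the first 3 groups were injected with 100 µg of pI-pC, a synthetic double-stranded RNA, 3 times on alternate days from about 6 weeks of age, and were age-matched to the NPmut mice, which had no pI-pC and were sampled when moribund. Mx1-Cre is switched on by interferon, is active in many cell types and can act without pI-pC. The lack of injections and the moribund stage cannot be told apart from the NPmut genotype. Ages at sampling are not given in the labels. Total counts per library ran from 12576174 to 29124022.

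The sorted fraction was checked against its markers. Levels are given as RPKM, the deposited count scaled by the library total and by the exonic length. Kit, which defines the sort, had 28.7 to 82.6 RPKM. The T and B cell genes Cd3e, Cd8a, Cd79a and Ms4a1 and the neutrophil gene Ly6g had 0 to 12 counts in any library, and Cd4 had 8 to 33. Other lineage genes were not at 0. Itgam of myeloid cells had 1.23 to 2.73 RPKM and Nkg7 of cytotoxic cells 39.3 to 74.9 RPKM, so that RNA of some lineage genes was present in the fraction.

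The targeted genes came first among the measurements. Nras had 11.7 ± 0.682 RPKM (mean ± SD) in control mice (n = 3), 11.7 ± 1.05 in p53mut mice (n = 3), 11.2 ± 0.491 in NrasG12D mice (n = 3) and 9.80 ± 1.20 in NPmut mice (n = 4). Trp53 had 29.3 ± 1.47 RPKM in control, 31.5 ± 0.581 in p53mut, 31.1 ± 1.24 in NrasG12D and 22.2 ± 2.78 in NPmut mice. Trp53 was lower in NPmut than in p53mut mice by edgeR (log2 fold change −0.41, SE 0.10, adjusted p 0.0207) and than in NrasG12D mice (−0.41, adjusted p 0.0241). Against control mice it did not pass (−0.28, adjusted p 0.103). All 4 NPmut mice were below all 9 others. Gene counts do not separate mutant from wild-type alleles, so these levels do not check the genotypes.

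Of the 10 members, 9 passed the filter on low counts and were tested, and Mertk was not. Epha2 passed it through its high counts in NPmut mice. A differentially expressed gene (DEG) has an adjusted p under 0.05 by the quasi-likelihood test of edgeR with Benjamini-Hochberg adjustment over 17795 genes and a fold change of at least 2. Against control mice, 4 members were higher DEGs in NPmut mice, where 2.32% of all genes tested were, and 2 were lower DEGs, where 3.69% were. Without the fold minimum, 7 members had an adjusted p under 0.05, against 10.9% of all genes. On the scale of CPM with TMM factors, 8 members had no overlap between NPmut and control mice, against 22.0% of all genes, and 4 of these lay above and 4 below the control mice. The median log2 fold change was −0.09 over the tested members and 0.01 over all genes tested. The members were listed with results of these data known, so that their higher shares are a description of the list.

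Against NrasG12D mice, 1 member was a higher DEG in NPmut mice (1.81% of all genes) and 2 were lower DEGs (2.6%). An adjusted p under 0.05 was reached by 5 members (8.88% of all genes), and 6 members had no overlap between the groups (20.5%). Against p53mut mice, 3 members were higher DEGs in NPmut mice (2.15% of all genes) and 2 were lower DEGs (3.10%), 6 had an adjusted p under 0.05 (9.95%), and 7 had no overlap (19.6%). Median log2 fold changes of the members were −0.18 against NrasG12D and −0.19 against p53mut mice, beside 0.04 and 0.03 over all genes. The 3 comparisons share the NPmut mice and are not independent of each other.

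**Figure D1:**
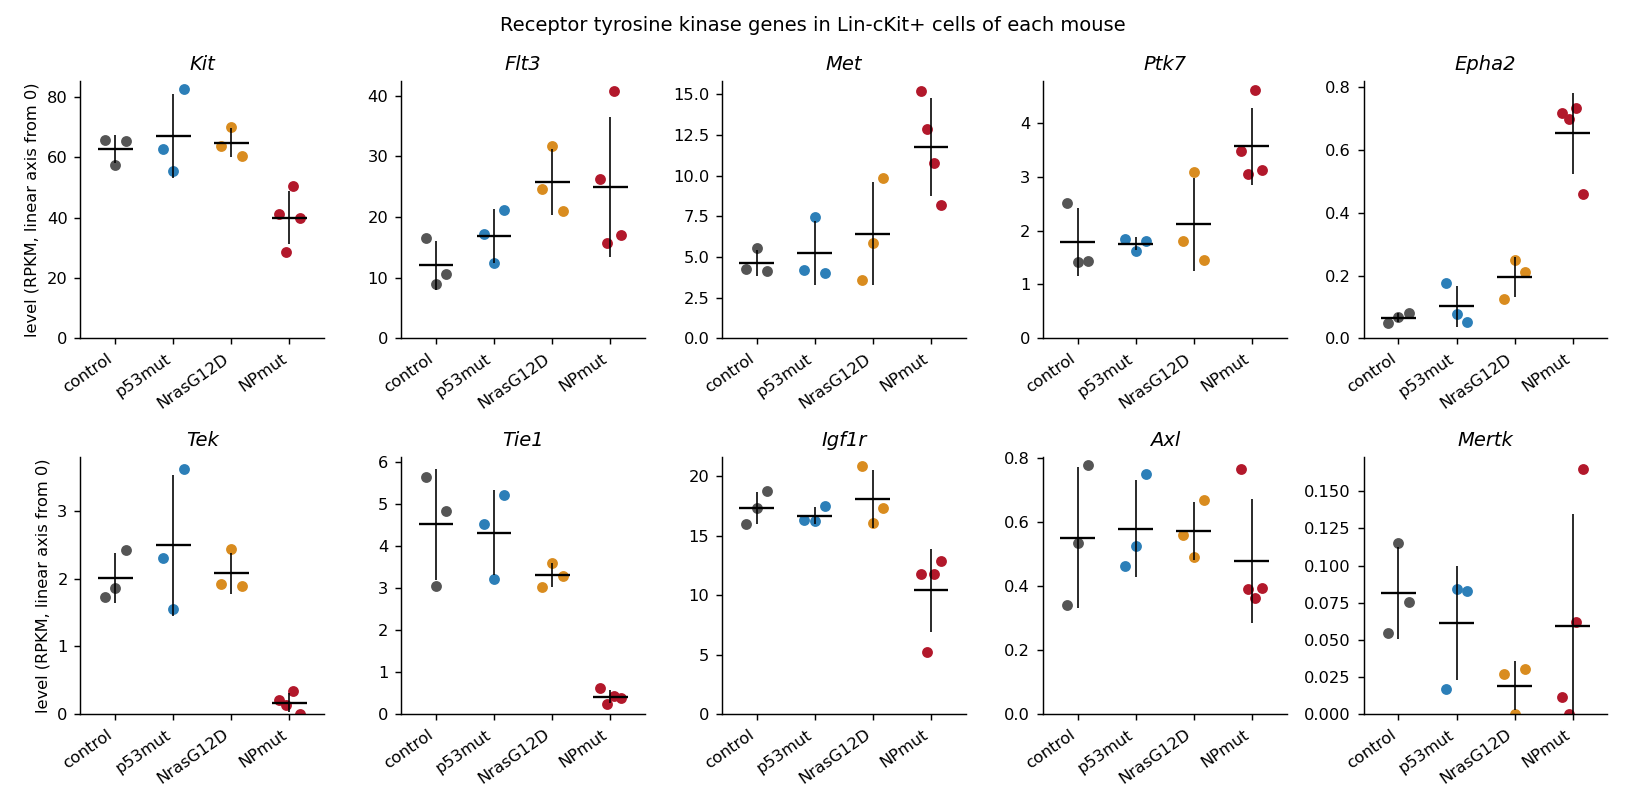
Level of each member in RPKM (vertical axis, linear from 0, own scale per gene) in each mouse of the 4 groups. Points are mice, horizontal lines are group means and vertical lines show 1 SD; Tek and Tie1 in NPmut mice and Epha2 in NPmut mice lie apart from the other 3 groups, and Kit in NPmut mice lies below them.

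**Figure D2:**
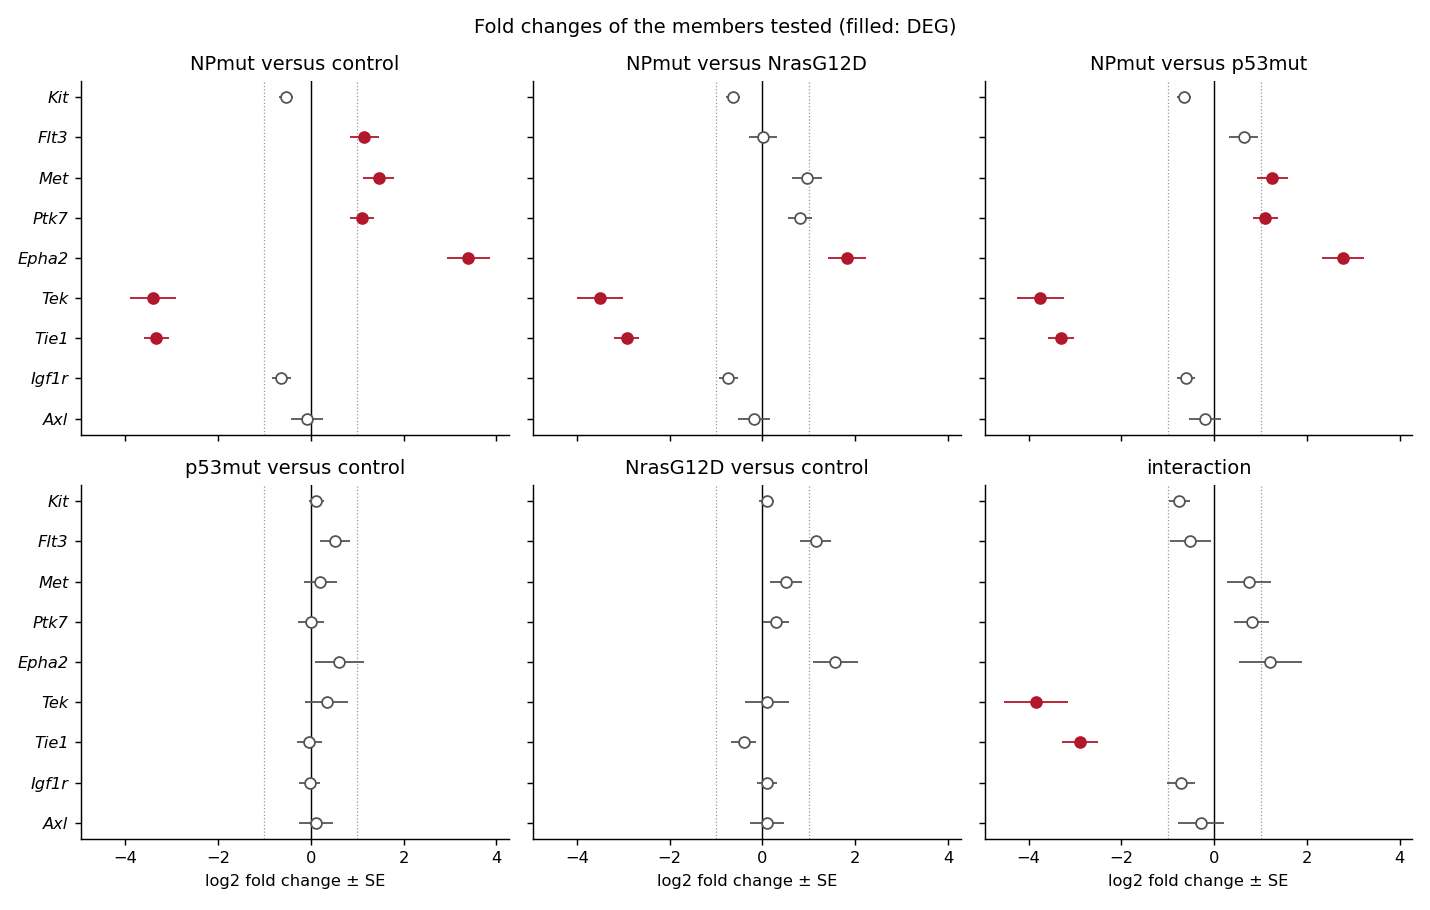
Fold change of each tested member on the log2 scale (horizontal axis) with its SE in each of the 6 comparisons. Filled points are DEGs and dotted lines mark a 2-fold change; Tek and Tie1 are lower DEGs in the 3 comparisons with NPmut mice and in the interaction, and no member is filled for p53mut or NrasG12D against control mice.

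Kit (ENSMUSG00000005672, GRCm38 chromosome 5, 75574916 to 75656722, plus strand) encodes the receptor for stem cell factor and carries the sort marker. Its level was 65.6, 57.3 and 65.5 RPKM in control mice 1 to 3, 62.9, 55.5 and 82.6 in p53mut mice 1 to 3, 63.9, 70.0 and 60.4 in NrasG12D mice 1 to 3, and 41.2, 28.7, 50.5 and 39.9 in NPmut mice 1 to 4. All 4 NPmut mice lay below all 9 other mice, and the other 3 groups overlapped. The log2 fold change against control mice was −0.54 (SE 0.15, adjusted p 0.0322), under the 2-fold minimum. It was −0.63 against NrasG12D mice (adjusted p 0.0177) and −0.66 against p53mut mice (adjusted p 0.0120). Fewer cells of a type with high Kit and less Kit RNA per cell cannot be told apart in these bulk libraries.

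The adjusted p of Kit against control mice ran from 0.0138 to 0.123 when each of the 13 libraries was left out. It rose above the threshold without control 1 (0.123), control 2 (0.0641), control 3 (0.110) and NPmut 1 (0.0659). Against NrasG12D mice it did so without NrasG12D 1 (0.0577) and NrasG12D 2 (0.0978), and against p53mut mice without p53mut 3 (0.0963). The log2 fold change against control mice ran from −0.64 to −0.44. In alternatives that kept every library, Kit missed the threshold in 3 of 10 against control (adjusted p up to 0.104), 2 of 10 against NrasG12D (up to 0.102) and 1 of 10 against p53mut mice (0.0790). Kit made up 58.2%, 59.6% and 60.3% of the summed RPKM of the 10 members in control mice, and 41.1%, 42.8%, 42.0% and 48.4% in NPmut mice.

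Flt3 (ENSMUSG00000042817, chromosome 5, 147330741 to 147400489, minus strand) encodes the receptor for FLT3 ligand, found on multipotent and lymphoid progenitors. Its level was 16.6, 8.91 and 10.6 RPKM in control, 17.2, 12.4 and 21.1 in p53mut, 24.7, 31.7 and 21 in NrasG12D, and 26.2, 15.8, 40.8 and 17.0 in NPmut mice. NPmut mouse 3 was the highest of all 13, while NPmut mice 2 and 4 were near control mouse 1, so that in RPKM the NPmut and control ranges overlapped. With TMM factors they did not. All 3 NrasG12D mice lay above all 3 control mice on both scales.

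Flt3 was a DEG in NPmut against control mice (log2 fold change 1.15, SE 0.31, adjusted p 0.0336). Leaving out NPmut 3 took the fold change to 0.84 (adjusted p 0.0478), below the 2-fold minimum, and leaving out NPmut 1 took the adjusted p to 0.0674. Over the fits that left out each library, the adjusted p ran from 0.0237 to 0.138, and the call was also lost without control 2 (0.129) and control 3 (0.138). Of 10 alternatives that kept every library, 4 lost it, with library totals, without a filter, with only the compared groups (0.0709) and with background reads as a covariate (0.188). Against NrasG12D mice the log2 fold change was 0.01 (adjusted p 0.994), and against p53mut mice it was 0.63 (adjusted p 0.232). A p above the threshold does not show that the groups were alike. The antisense gene Gm26597 overlaps Flt3 and had at most 55 counts, and since the strand setting of the counting is not given, reads of the pair cannot be told apart.

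Met (ENSMUSG00000009376, chromosome 6, 17463800 to 17573980, plus strand) encodes the receptor for hepatocyte growth factor. Its level was 4.26, 5.53 and 4.12 RPKM in control, 4.22, 7.49 and 4.00 in p53mut, 3.59, 5.85 and 9.83 in NrasG12D, and 15.2, 12.9, 10.8 and 8.19 in NPmut mice. The NPmut mice lay above all control and all p53mut mice. NrasG12D mouse 3 was higher than NPmut mouse 4, so that those groups overlapped.

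Met was a DEG in NPmut against p53mut mice (log2 fold change 1.25, SE 0.33, adjusted p 0.0330). Against NrasG12D mice it was not (0.96, adjusted p 0.0949), and in that comparison it became one without NrasG12D 3 (1.39, adjusted p 0.0300; range 0.0300 to 0.271 over the 13 fits). The call against p53mut mice was lost without p53mut 1 (adjusted p 0.133), p53mut 3 (0.148), NPmut 1 (0.0757) and NPmut 2 (0.103), in a range of 0.0138 to 0.148, and in 2 of 10 alternatives that kept every library (up to 0.113). Against NrasG12D mice 1 of those 10 had an adjusted p under 0.05 with a fold change under 2. Against control mice (log2 fold change 1.46, SE 0.34, adjusted p 0.0157) the call was lost without control 1 (0.0607), control 3 (0.0780) and NPmut 2 (0.0607), in a range of 0.00655 to 0.0780.

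Igf1r (ENSMUSG00000005533, chromosome 7, 67952827 to 68233668, plus strand) encodes the receptor for insulin-like growth factors. Its level was 16.0, 17.3 and 18.7 RPKM in control, 16.3, 16.2 and 17.5 in p53mut, 20.8, 16.1 and 17.3 in NrasG12D, and 11.8, 5.22, 11.7 and 12.8 in NPmut mice. All NPmut mice lay below all 9 others, and NPmut mouse 2 lay far below the other 3. Against control mice the log2 fold change was −0.63 (SE 0.20, adjusted p 0.0603). Without NPmut 2 the fold change was smaller, −0.43, and the adjusted p lower, 0.00953, and without NPmut 4 the adjusted p was 0.0289. Over the 13 fits it ran from 0.00953 to 0.178, and 4 of 10 alternatives that kept every library were under the threshold (highest 0.182). Over those 10 the log2 fold change ran from −1.06 to −0.60, and 0 called a DEG. Against NrasG12D mice the log2 fold change was −0.74 (adjusted p 0.0362), and the adjusted p stayed under the threshold in 5 of 13 fits, rising to 0.154 without NrasG12D 1. Without the other libraries that raised it past the threshold it was 0.0757 (NrasG12D 2), 0.0799 (NrasG12D 3), 0.0568 (NPmut 1), 0.0508 (control 1), 0.0524 (control 3), 0.0519 (p53mut 1) and 0.0507 (p53mut 3). In alternatives that kept every library, 9 of 10 were under it (highest 0.145). Against p53mut mice the log2 fold change was −0.61 (adjusted p 0.0753), with 3 of 10 such alternatives under the threshold. On leaving out a library the adjusted p ran from 0.0133 to 0.204, under the threshold in 2 of 13 fits.

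Ptk7 (ENSMUSG00000023972, chromosome 17, 46564471 to 46629504, minus strand) encodes a receptor with a kinase domain thought to be inactive, which takes part in Wnt signaling. Its level was 2.51, 1.41 and 1.43 RPKM in control, 1.85, 1.62 and 1.80 in p53mut, 1.81, 3.09 and 1.46 in NrasG12D, and 3.47, 3.05, 4.60 and 3.12 in NPmut mice. Every NPmut mouse was higher than every control and p53mut mouse. NrasG12D mouse 2 reached the level of the lowest NPmut mouse in RPKM. With TMM factors every NPmut mouse lay above every NrasG12D mouse. Against p53mut mice Ptk7 was a DEG (log2 fold change 1.10, SE 0.27, adjusted p 0.0168). That call was lost without p53mut 1 (adjusted p 0.0598), p53mut 2 (0.0548), p53mut 3 (0.0790) and, through a fold change of 0.98, without NPmut 3 (0.0358), in a range of 0.00765 to 0.0790. Against NrasG12D mice the log2 fold change was 0.81 (adjusted p 0.0676), and 1.21 without NrasG12D 2 (adjusted p 0.0208; range 0.0208 to 0.247). The call against control mice (log2 fold change 1.11, SE 0.26, adjusted p 0.0152) also failed without NPmut 3, with a log2 fold change of 0.98 (adjusted p 0.0327), as it did without control 2 or control 3; the range was 0.00711 to 0.0869. The overlapping antisense gene Gm26904 had at most 10 counts.

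Epha2 (ENSMUSG00000006445, chromosome 4, 141301240 to 141329384, plus strand) encodes a receptor for ephrin-A ligands on neighboring cells. It had few counts outside the NPmut group. Control mice had 4, 5 and 7 counts, p53mut mice 11, 5 and 4, NrasG12D mice 10, 18 and 15, and NPmut mice 67, 95, 64 and 27. In RPKM these were 0.0507, 0.0668 and 0.0815 in control, 0.176, 0.0784 and 0.0512 in p53mut, 0.125, 0.249 and 0.211 in NrasG12D, and 0.718, 0.698, 0.734 and 0.459 in NPmut mice. The NPmut mice stood above all 9 others, and the NrasG12D mice above all 3 control mice.

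The log2 fold change of Epha2 was 3.39 against control mice (SE 0.46, adjusted p 0.00053), 2.78 against p53mut mice (SE 0.45, adjusted p 0.00173) and 1.82 against NrasG12D mice (SE 0.41, adjusted p 0.0134). In fits of control mice with either single mutant alone it did not pass the filter on low counts. Its place among the tested genes therefore depended on its high counts in NPmut mice, and these tests and calls share that limit. The call against control mice held in each of 13 fits that left out a library, with fold changes from 3.25 to 3.55. Against NrasG12D mice it was lost without NrasG12D 1 (1.56, adjusted p 0.0770; range 0.0103 to 0.0770). Background reads, measured on genes of olfactory and vomeronasal receptors, would give 38.7% of the Epha2 counts of control mice at equal reads per kilobase of exon, 18.1% in p53mut, 3.99% in NrasG12D and 1.01% in NPmut mice. 

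Tek (ENSMUSG00000006386, chromosome 4, 94739289 to 94874976, plus strand) encodes the receptor for angiopoietins, and Tie1 (ENSMUSG00000033191, chromosome 4, 118471191 to 118490061, minus strand) encodes its partner without a firmly known ligand of its own. Both are known from endothelial cells and stem cells. Promoters of the members with the largest falls, Tek and Tie1, and the largest rises, Epha2 and Met, follow, each 300 bases from RefSeq (GRCm38.p6), 5′ to 3′ on the strand of the gene. They are chr4:94739039-94739338 (plus) for Tek, chr4:118489800-118490099 (minus) for Tie1, chr4:141300971-141301270 (plus) for Epha2 and chr6:17463707-17464006 (plus) for Met. Capitals mark matches, on either strand, to a GATA motif (AGATAA or else TGATAA), to the PU.1 core (GAGGAA), to an AP-1 motif (TGAGTCA) or to a RUNX motif (TGTGGT).
Tek: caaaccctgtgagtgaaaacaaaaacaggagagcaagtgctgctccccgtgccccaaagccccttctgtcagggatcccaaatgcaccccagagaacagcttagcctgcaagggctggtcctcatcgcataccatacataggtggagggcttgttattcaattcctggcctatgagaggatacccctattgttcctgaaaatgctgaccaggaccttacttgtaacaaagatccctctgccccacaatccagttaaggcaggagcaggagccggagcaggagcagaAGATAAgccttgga
Tie1: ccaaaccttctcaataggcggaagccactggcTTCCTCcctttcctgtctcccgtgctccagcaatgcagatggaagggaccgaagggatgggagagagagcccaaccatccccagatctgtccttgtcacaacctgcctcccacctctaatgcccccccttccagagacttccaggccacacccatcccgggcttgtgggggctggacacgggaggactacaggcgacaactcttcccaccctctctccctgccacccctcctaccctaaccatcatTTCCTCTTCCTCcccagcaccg
Epha2: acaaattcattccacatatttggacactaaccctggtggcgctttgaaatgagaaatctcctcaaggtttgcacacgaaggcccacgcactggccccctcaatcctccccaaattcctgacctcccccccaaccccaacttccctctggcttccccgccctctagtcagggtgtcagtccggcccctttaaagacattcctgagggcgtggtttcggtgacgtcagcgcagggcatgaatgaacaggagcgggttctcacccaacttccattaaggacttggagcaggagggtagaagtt
Met: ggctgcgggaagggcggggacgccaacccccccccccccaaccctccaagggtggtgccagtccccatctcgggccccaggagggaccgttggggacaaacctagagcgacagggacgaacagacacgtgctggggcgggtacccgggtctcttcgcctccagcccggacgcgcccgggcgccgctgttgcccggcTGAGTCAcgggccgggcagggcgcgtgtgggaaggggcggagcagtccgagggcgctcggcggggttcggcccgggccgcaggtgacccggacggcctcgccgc

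All 10 members had a promoter in the RefSeq table. Positions count the first transcribed base as 1 with no base 0. Tek held AGATAA at position 37, a motif in 11.2% of 32851 promoters of this length; AGATAA or TGATAA was in 18.6%. Tie1 held GAGGAA 3 times on the minus strand relative to the gene, from positions −218, 29 and 35, the last 2 side by side, and 28.3% of promoters held this motif at least once. Met held TGAGTCA from position −54 (5.20% of promoters). Among the members not printed, Kit held GAGGAA from position −223 and Axl from −130. Epha2, Flt3, Ptk7, Igf1r and Mertk held none of the 5 motifs, and no member held TGATAA (9.05% of promoters) or TGTGGT (16.8%). A match is a run of letters and not a measured binding site.

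The level of Tek was 1.73, 1.87 and 2.42 RPKM in control, 2.30, 1.56 and 3.62 in p53mut, and 1.92, 2.43 and 1.89 in NrasG12D mice. NPmut mice had 0.202, 0.131, 0.341 and 0 RPKM, from 19, 18, 30 and 0 counts. The count of 0 in NPmut mouse 4 allows a level of up to 0.0506 RPKM (3 counts, counting error only). Every NPmut mouse lay below every other mouse, and the other groups overlapped.

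Tie1 had 5.65, 3.05 and 4.83 RPKM in control, 4.52, 3.22 and 5.21 in p53mut, 3.03, 3.59 and 3.28 in NrasG12D, and 0.631, 0.230, 0.425 and 0.388 in NPmut mice. The NPmut mice were again the 4 lowest of 13. Its log2 fold change was −3.33 against control (SE 0.27, adjusted p 3.7e-05), −2.92 against NrasG12D (adjusted p 5.2e-05) and −3.30 against p53mut mice (adjusted p 3.2e-05). The log2 fold change of Tek was −3.40 against control (SE 0.50, adjusted p 0.000994), −3.50 against NrasG12D (adjusted p 0.00117) and −3.74 against p53mut mice (adjusted p 0.000671). Both genes were DEGs in all 13 fits that left out a library in these 3 comparisons. With background reads as a covariate Tek was not called against control mice (adjusted p 0.0567, the highest of the 9 alternatives that kept every library and tested it; the lowest was 2.1e-23). On leaving out a library, fold changes against control mice ran from −3.89 to −3.09 for Tek and from −3.60 to −3.11 for Tie1. Over alternatives that kept every library they ran from −3.51 to −3.11 for Tek and from −4.33 to −3.29 for Tie1.

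Lists of marker genes moved with Tek and Tie1 in NPmut against control mice. Beside the list counts here and in the next paragraph, 2.32% of all genes tested were higher DEGs and 3.69% lower DEGs. Of 18 HSC genes, 17 were tested and 14 were lower DEGs; their summed level was 153, 127 and 172 RPKM in control and 75.6, 60.5, 97.9 and 62.4 in NPmut mice, and Cd34, the most abundant, was not lower by the test (log2 fold change 0.18, adjusted p 0.553). All 7 tested of 10 megakaryocyte genes were lower DEGs, with sums of 57.3, 49.9 and 79.2 RPKM in control and 11.4, 6.61, 21.1 and 5.79 in NPmut mice, and Pf4 led. In both lists every NPmut mouse was below every control mouse. Of 16 endothelial genes, 10 were tested and 5 were lower DEGs (Kdr, Emcn, Plvap, Esam and Tal1), with sums of 66.5, 66.0 and 73.1 RPKM in control and 51.2, 39.6, 56.5 and 42.6 in NPmut mice. Eng led this list, and Kdr and Flt4 are also among the other receptor tyrosine kinases described here. The list was split by level. Pecam1 (1209 to 3857 counts per library), Eng (514 to 2047) and Tal1 (539 to 2032) were abundant, and under the 2-fold minimum Pecam1 was higher in NPmut than in control mice (log2 fold change 0.65, adjusted p 0.00211) and Eng lower (−0.70, adjusted p 0.0121). The 6 genes with the fewest counts had 1 to 14 counts of Cdh5 in any library, 0 to 4 of Cldn5, 0 to 13 of Stab2, 0 to 12 of Lyve1, 0 to 3 of Sox17 and 0 to 6 of Sox18. The part of these cell types in the fall of Tek and Tie1 was not tested.

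Monocyte and dendritic cell genes moved with Met, Ptk7 and Epha2. Of 14, 12 were higher DEGs in NPmut mice, with sums of 132, 152 and 139 RPKM in control and 444, 534, 373 and 326 in NPmut mice, all 4 above all 3, and F13a1 was the most abundant. Their part in the rise of the receptors was not tested. Smaller shares of the other lists were DEGs in NPmut against control mice: 2 of 11 tested multipotent progenitor and lymphoid genes higher, 1 of 9 tissue macrophage genes higher (Cd68), 3 of 12 erythroid genes lower, 2 of 8 mast cell and basophil genes lower, 1 of 4 mesenchymal genes lower (Col1a2), 0 of 14 granulocyte genes and 0 of 6 mature lineage genes by edgeR. At an unadjusted p under 0.05 these last 2 lists had 2 and 3 genes (25.6% of all genes), and DESeq2 called 0 in both. Most genes of the erythroid and progenitor lists were not DEGs. All 12 erythroid fold changes were below 0 (median −1.17), with sums of 455 to 671 RPKM in control and 93.8 to 364 in NPmut mice, which did not overlap. All 11 multipotent progenitor and lymphoid genes were above 0 in NPmut mice (median 0.86) and in NrasG12D mice (median 0.84, 0 DEGs by edgeR, 6 at an unadjusted p under 0.05 and 1 by DESeq2), with sums of 128 to 160 RPKM in control, 178 to 228 in NrasG12D and 154 to 248 in NPmut mice, which overlapped the control mice. The part of these cell types in the changes of Kit and Flt3 was not tested.

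**Figure D3:**
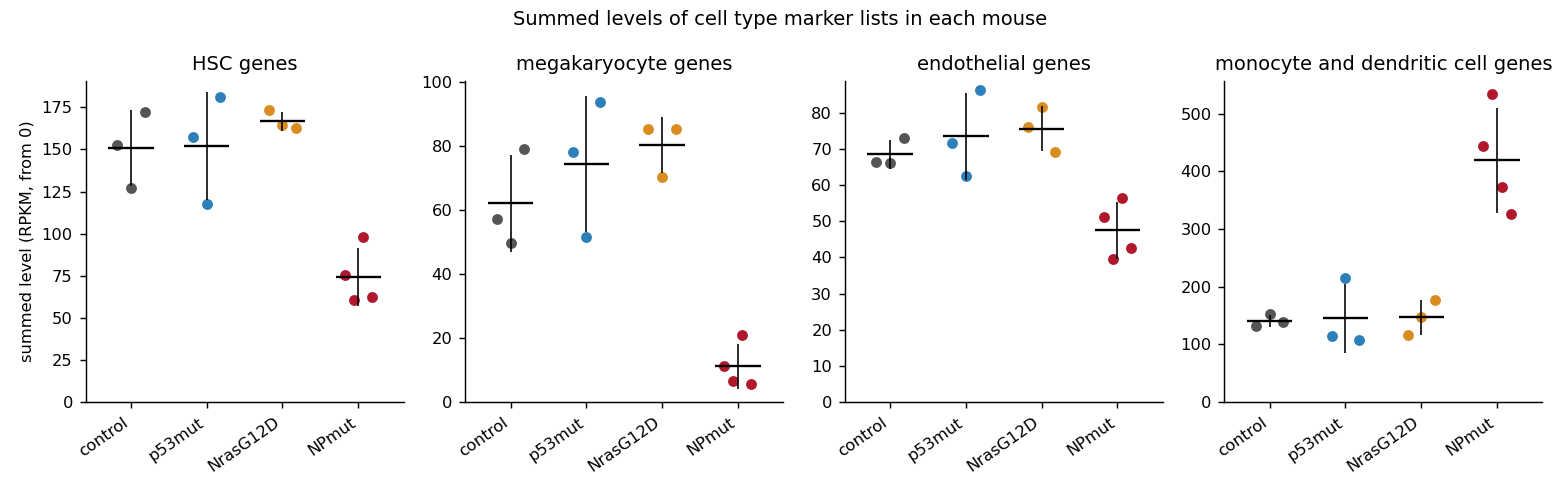
Summed level in RPKM (vertical axis, linear from 0) of 4 lists of marker genes in each mouse of the 4 groups. Points are mice, horizontal lines are means and vertical lines show 1 SD; NPmut mice lie below the other groups for HSC, megakaryocyte and endothelial genes and above them for monocyte and dendritic cell genes.

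Axl (ENSMUSG00000002602, chromosome 7, 25757273 to 25788705, minus strand) and Mertk (ENSMUSG00000014361, chromosome 2, 128698956 to 128802894, plus strand) encode receptors that bind GAS6 and protein S on dying cells. Axl had 0.341 to 0.778 RPKM in control, 0.461 to 0.749 in p53mut, 0.489 to 0.668 in NrasG12D and 0.362 to 0.766 in NPmut mice, so that all groups overlapped. NPmut mouse 1 was at 0.766 and the other 3 at 0.362 to 0.395. In NPmut against control mice Axl changed by −0.09 on the log2 scale (SE 0.34, adjusted p 0.901), the smallest of the members, and −0.98 with background reads as a covariate (adjusted p 0.292; range 0.292 to 0.998 over the alternatives with every library kept). Mertk had 4, 8 and 6 counts in control, 1, 5 and 6 in p53mut, 2, 0 and 2 in NrasG12D and 1, 0, 5 and 9 in NPmut mice. The NrasG12D mice lay below the control mice, but counts this low were not tested. The antisense gene Gm14011 overlaps Mertk and had at most 5 counts, and reads of the pair cannot be told apart. A count of 0 allows up to 0.0448 RPKM in NrasG12D mouse 2 and 0.0238 RPKM in NPmut mouse 2 (3 counts, counting error only). Background would give 31.9% of the Mertk counts in control mice, 28.0% in p53mut, 39.7% in NrasG12D and 15.8% in NPmut mice.

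The order of the levels in control mice, per length, was Kit at 62.8 ± 4.75 RPKM (mean ± SD, n = 3), Igf1r at 17.3 ± 1.36, Flt3 at 12 ± 4.02, Met at 4.63 ± 0.779, Tie1 at 4.51 ± 1.33, Tek at 2.01 ± 0.366, Ptk7 at 1.79 ± 0.625, Axl at 0.551 ± 0.219, Mertk at 0.0817 ± 0.0308 and Epha2 at 0.0663 ± 0.0154. Neighbors whose ranges overlapped were Igf1r and Flt3, Met and Tie1, Tek and Ptk7, and Mertk and Epha2. In NPmut mice (n = 4) the order was Kit at 40.1 ± 8.90, Flt3 at 24.9 ± 11.5, Met at 11.8 ± 3.00, Igf1r at 10.4 ± 3.48, Ptk7 at 3.56 ± 0.718, Epha2 at 0.652 ± 0.129, Axl at 0.478 ± 0.193, Tie1 at 0.419 ± 0.165, Tek at 0.169 ± 0.142 and Mertk at 0.0596 ± 0.0752. There the ranges overlapped between Kit and Flt3, between Met and Igf1r, and between each pair of neighbors from Epha2 to Mertk. Tie1 thus moved from the level of Met in control mice to that of Axl in NPmut mice.

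In p53mut mice the means were 67.0 ± 14.0 RPKM for Kit, 16.9 ± 4.38 for Flt3, 16.7 ± 0.705 for Igf1r, 5.24 ± 1.95 for Met, 4.32 ± 1.01 for Tie1, 2.49 ± 1.04 for Tek, 1.76 ± 0.120 for Ptk7, 0.578 ± 0.151 for Axl, 0.102 ± 0.0657 for Epha2 and 0.0615 ± 0.0384 for Mertk. Neighbors in this order overlapped in range except Kit and Flt3, Igf1r and Met, Ptk7 and Axl, and Axl and Epha2. In NrasG12D mice the means were 64.8 ± 4.84 for Kit, 25.8 ± 5.43 for Flt3, 18.1 ± 2.47 for Igf1r, 6.42 ± 3.16 for Met, 3.30 ± 0.284 for Tie1, 2.12 ± 0.861 for Ptk7, 2.08 ± 0.307 for Tek, 0.572 ± 0.0901 for Axl, 0.195 ± 0.0635 for Epha2 and 0.0191 ± 0.0167 for Mertk. Met and Tie1, Tie1 and Ptk7, and Ptk7 and Tek overlapped there, and the other neighbors did not.

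For p53mut against control mice, which asks what the p53 mutation does alone, edgeR gave 0 DEGs among the members and 0% among all genes. With the replicate number as a block in a fit of these 2 groups alone, it gave 25 genes, 4 of them higher, and 0 members, with Epha2 not tested. At an unadjusted p under 0.05 there were 0 members and 415 genes, 2.33% of those tested, and DESeq2 gave 0 members and 3 genes. No member lay without overlap between these groups, against 11.2% of all genes. The median log2 fold change was 0.12 over the members and 0.00 over all genes, and the largest were 0.61 for Epha2 and 0.52 for Flt3. On leaving out a library, that of Epha2 ran from −0.0186 to 0.97 and that of Flt3 from 0.34 to 0.83. Epha2 had few counts in both groups and did not pass the filter on low counts in fits of these 2 groups alone, so that its test here depended on the NPmut counts.

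For NrasG12D against control mice edgeR gave 0 DEGs among the members and 1 among all genes (H2-Q6), 0.00562%. Other edgeR fits to every library of the compared groups called 0 to 159 genes, with 81 from these 2 groups alone, 61 from them with the replicate block, 28 with the block in all groups and 159 without a filter. At an unadjusted p under 0.05 there were 2 members, Epha2 and Flt3, and 1642 genes, 9.23%. Of the 9 tested members, the same 2 had no overlap, against 21.1% of all genes; Mertk, not tested, also had none and was lower. Epha2 was higher by 1.57 (SE 0.49, adjusted p 0.295). It passed the filter on low counts in the fit to all groups and not in fits of these 2 groups alone, so that its test here depended on the NPmut counts. Its adjusted p ran from 0.189 to 0.720 when libraries were left out. Flt3 was higher by 1.14 (SE 0.33, adjusted p 0.256), a fold about as large as in NPmut mice, where it was called. DESeq2 gave 1 member, Flt3 (adjusted p 0.0392; range 0.0392 to 0.401 over the 10 alternatives that kept every library), and 77 genes. Met at 0.51 and Tie1 at −0.40 overlapped between the groups and varied between fits. On leaving out a library Met ran from 0.08 to 0.80 and Tie1 from −0.61 to −0.18, and Tie1 was at −1.18 with background reads as a covariate (adjusted p 0.331; range 0.331 to 0.738 over alternatives that kept every library). The members' median was 0.10, beside −0.01 over all genes. Both single-mutant comparisons share the control mice with the NPmut comparison.

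The interaction asks whether the double mutant departs from the sum of the single-mutant changes on the log2 scale (NPmut minus p53mut minus NrasG12D plus control). Only the NPmut mice lacked pI-pC and were moribund, and the term cannot tell this apart from their genotype. By edgeR 2 members were lower DEGs for it, Tek and Tie1, against 0.938% of all genes, and 0 were higher. The term was −3.84 for Tek (SE 0.69, adjusted p 0.0180) and −2.89 for Tie1 (SE 0.38, adjusted p 0.00263). For Tie1 it passed in all 13 fits that left out a library. For Tek it did not pass without control 1 (adjusted p 0.0536), control 2 (0.0711), p53mut 3 (0.0594) or NrasG12D 2 (0.0510), in a range of 0.00285 to 0.0711, while the term ran from −4.32 to −3.51.

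For Kit the interaction term was −0.75 (adjusted p 0.0979), for Epha2 1.20 (adjusted p 0.407), for Ptk7 0.81 (adjusted p 0.315) and for Met 0.75 (adjusted p 0.485), none past the threshold by edgeR with all libraries and the chosen filter. The members' median was −0.51, beside 0.05 over all genes tested. For Kit the adjusted p was under the threshold with DESeq2 (0.0372), without a filter (0.00219) and without NPmut 3 (0.0423), in a range of 0.00219 to 0.266 over all alternatives. For Igf1r the term was −0.71 (SE 0.30, adjusted p 0.258), with Kit, Tek and Tie1 1 of 4 members at an unadjusted p under 0.05 (16.1% of all genes), and its adjusted p was 0.00755 without a filter, in a range of 0.00755 to 0.425 over all alternatives. These 5 results do not show that the changes added up.

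Other receptor tyrosine kinases were taken from a list of 48 genes, of which 23 were tested. Against control mice, 2 were higher DEGs in NPmut mice (2.32% of all genes) and 4 lower (3.69%). The median was −0.70, beside 0.01 over all genes. Csf1r, the receptor for macrophage colony-stimulating factor and the most abundant of the list, had 9.28, 10.6 and 9.60 RPKM in control and 30.9, 28.4, 22.3 and 19.6 in NPmut mice (log2 fold change 1.49, adjusted p 0.0024). It is also 1 of the 14 monocyte and dendritic cell genes, 12 of which rose, and their part in its rise was not tested. Ephb2, a receptor for ephrin-B ligands, rose by 1.90 (adjusted p 0.00295), and these 2 calls held in all 13 fits. Fgfr3 fell by 3.50 (adjusted p 0.0186), Epha4 by 3.18 (0.0261), Kdr by 2.91 (0.0190) and Ryk by 1.86 (0.0176). On leaving out a library these changes ran from −4.03 to −3.12 for Fgfr3, −4.45 to −2.69 for Epha4, −4.96 to −2.51 for Kdr and −2.30 to −1.60 for Ryk, and Kdr reached −5.59 in another alternative. Kdr had 24 to 48 counts in control mice and 15, 3, 0 and 0 in NPmut mice, and background would give 12.3% of the control counts of Kdr, 16.9% of those of Fgfr3 and 22.2% of those of Epha4. Kdr was not called without control 3 (highest adjusted p 0.0859), Fgfr3 without control 1 or 2 (0.0676), and Epha4 (0.129) and Ryk (0.0772) without control 2, control 3 or NPmut 1. With background reads as a covariate Fgfr3, Epha4 and Ryk also lost the call, and over alternatives with every library kept their adjusted p reached 0.167, 0.167 and 0.175. Kdr lost it in fits of the compared groups alone, with and without the replicate block (up to 0.102), and Ryk in such a fit without the block. Epha4 did not pass the filter on low counts in those fits, so that its test against control mice depended on counts of the other groups. Fgfr3, Epha4 and Kdr had counts down to 0 and were not tested with at least 10 counts in every library.

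Against NrasG12D mice, 2 of the 23 were higher DEGs, Csf1r (1.14) and Aatk (1.28), and 2 lower, Kdr (−3.46) and Ephb6 (−1.03). Csf1r lost the call without NrasG12D 1 or NPmut 2, Aatk without NrasG12D 1 or 2, and Ephb6 without any of the 3 NrasG12D mice, NPmut 2 or NPmut 4, with adjusted p up to 0.0666, 0.0930 and 0.102. Kdr kept it in all 13, but lost it in fits of the compared groups alone, with and without the replicate block (adjusted p up to 0.0644). Ephb6 also lost it in those fits and with the block in all groups (up to 0.0847), and Aatk with the compared groups alone (0.0593). Against p53mut mice 3 were higher (Csf1r, Ephb2 and Aatk), where 2.15% of all genes were, and 3 lower (Kdr, Fgfr3 and Epha4), where 3.10% were. Csf1r kept the call in all 13 fits. The other 5 lost it in at least 1, with adjusted p up to 0.0680 for Kdr, 0.107 for Fgfr3, 0.0724 for Epha4, 0.120 for Ephb2 and 0.165 for Aatk. In alternatives with every library kept, Csf1r and Epha4 kept the call where tested, and the other 4 lost it in at least 1, with adjusted p up to 0.0962 for Kdr, 0.128 for Fgfr3, 0.0748 for Ephb2 and 0.298 for Aatk. For the interaction edgeR called 0 of the 23, with 6 at an unadjusted p under 0.05 (16.1% of all genes), and DESeq2 called 4, beside 619 of all 17795 genes.

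**Figure D4:**
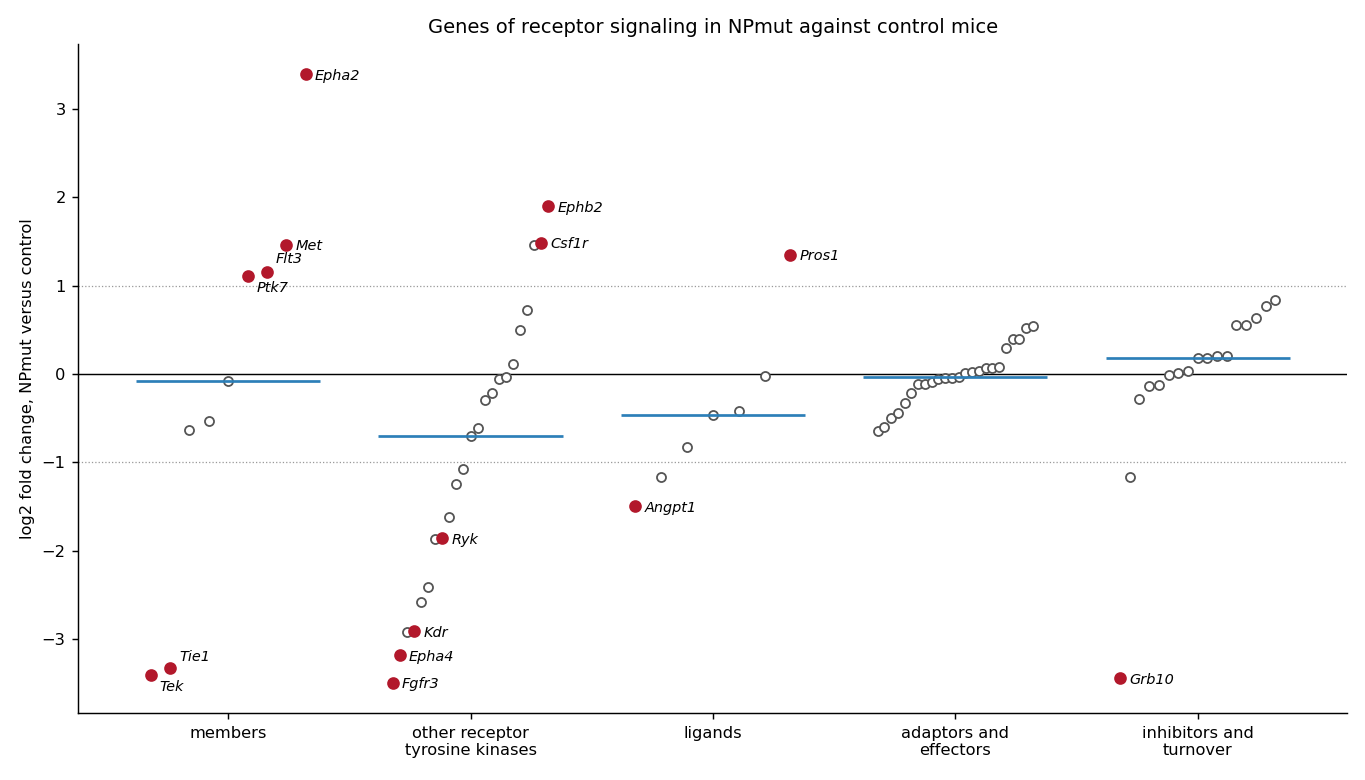
Log2 fold change in NPmut against control mice (vertical axis) of every tested gene of the members and of 4 lists of receptor signaling. Filled points with names are DEGs, blue lines are list medians and dotted lines mark a 2-fold change; named genes reach −3.50 (Fgfr3) and 3.39 (Epha2), and the adaptor list has none.

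Among 15 ligands of the members, 7 were tested, and 8 were not, with Kitl, which encodes stem cell factor, at 0 to 8 counts. Angpt1 encodes the activating ligand of TEK and was the most abundant, at 31.8, 21 and 30.7 RPKM in control and 9.62, 4.58, 16.6 and 5.99 in NPmut mice. All NPmut mice were below all control mice (log2 fold change −1.50, adjusted p 0.0194). The ligand was thus lower in the same mice as the receptor genes Tek and Tie1. Pros1, encoding the protein S that binds AXL and MERTK, rose by 1.35 (adjusted p 0.0259), although NPmut mouse 4 at 0.914 RPKM was below all 3 control mice at 0.916 to 1.10. Hgf, the ligand of MET, fell by 0.83 (adjusted p 0.00966). Of the 7 tested ligands 1 was a higher DEG and 1 a lower DEG, beside 2.32% and 3.69% of all genes. The list's median was −0.46, beside 0.01 over all genes. Angpt1 was not called without control 1, control 3 or NPmut 2 (adjusted p up to 0.0761), nor Pros1 without any 1 control mouse, NPmut 1 or NPmut 2 (up to 0.0947). Angpt1 also lost the call without a filter and with background reads as a covariate (up to 0.227), and Pros1 with that covariate and with the compared groups alone (up to 0.0989).

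Of 26 adaptors and effectors, 24 were tested and 0 were DEGs by edgeR in NPmut against control mice, with 6 at an unadjusted p under 0.05 (25.6% of all genes), 0 called by DESeq2 and a median of −0.04. An adjusted p under 0.05 below 2-fold was reached by 5, where 10.9% of all genes had an adjusted p under 0.05 at any fold. These were the Ras exchange factor Sos1 (−0.65), the adaptor Nck2 (−0.50), the exchange factor Vav1 (0.52), which was the most abundant, the kinase subunit Pik3cd (0.40) and the phospholipase Plcg2 (0.39). Nck2 had an interaction term of −1.0 (adjusted p 0.0203), still a DEG for it in 4 of 13 fits that left out a library (−1.04 to −0.95, adjusted p 0.0121 to 0.0711) and in 6 of 8 alternatives that kept every library, not without a filter or with at least 10 counts in every library (up to 0.0604). Of 19 inhibitors and turnover genes, 17 were tested, with a median of 0.18, and 1 was a lower DEG, where 3.69% of all genes were. Grb10, an adaptor that binds and restrains IGF1R and the insulin receptor, had 5.18, 6.14 and 7.14 RPKM in control, 5.58, 4.92 and 7.25 in p53mut, 3.51, 3.57 and 2.98 in NrasG12D, and 0.678, 0.329, 0.772 and 0.315 in NPmut mice. The groups of NPmut and control mice were far apart (log2 fold change −3.44, adjusted p 1.5e-05), and the call held in all 13 fits. The phosphatase gene Ptpn6 (0.55, the most abundant) and the adaptors Sh2b2 (0.84) and Sh2b3 (0.77) had an adjusted p under 0.05 below 2-fold.

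For each tested member, the genes most like it over the 13 libraries were taken by Pearson correlation of log2 CPM among the 12977 tested genes that averaged 1 or more on that scale, the member itself left out, as a description in which the libraries share groups. The closest were Jak1 to Kit (r = 0.981), Padi2 to Flt3 (0.942), Arhgef10l to Met (0.954), Itgb5 to Ptk7 (0.948), Il6st to Epha2 (0.957), Rab27b to Tek (0.990), Plxnc1 to Tie1 (0.986), ENSMUSG00000109836 to Igf1r (0.975) and Kdm6a to Axl (0.842). For Met, Mpeg1 and Csf1r followed. For Axl, 5530601H04Rik (0.771) and the female-specific Xist (0.757) followed, and the sexes differed among libraries, with control 1, p53mut 1, NrasG12D 2, NPmut 3 and NPmut 4 male by their counts. For Tek, Cavin2 and Prkcq followed, and for Tie1, Pde5a and Dach1.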

How the data were processed

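The authors deposited raw read counts per Ensembl gene for 13 libraries, made with a stranded SMARTer kit for low input; STAR 2.6.1d, R 3.6.1, DESeq2 1.26.0 and GRCm38.p6 are named in the submitters' notes, and the counting program and its strand setting are not. GENCODE M21 held 54809 of the 54838 identifiers and gave symbols, positions and exonic lengths. RPKM were computed here from the deposited counts and library totals, and CPM with TMM factors.

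In R 4.3.3, edgeR 4.0.16 fitted one quasi-likelihood model with robust estimation and TMM factors to all 13 libraries, with a mean per group and no covariate, for the 17795 genes kept by filterByExpr of 44944 with a count. P-values were adjusted by Benjamini-Hochberg over all genes tested. DEGs had an adjusted p under 0.05 and a change of at least 2-fold in either direction. Comparisons were NPmut with control, NrasG12D and p53mut mice, each single mutant with control, and the interaction.

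The members and lists were chosen with earlier results of these data known. Named genes are all members, Nras and Trp53, list genes that were DEGs, the most abundant gene of a list, and the 3 genes most correlated with a member (prior count 2). H2-Q6, Hgf, Kitl, Pecam1 and genes under 2-fold were named after their values were seen. Some lineage markers are withheld and not reported here. Background reads are those on 1733 olfactory and vomeronasal receptor genes.

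Replicate numbers are given in the labels, which do not say that they mark a litter or batch. Control and p53mut mice of the same number deviated together (correlations of 0.166, 0.163 and 0.152), and the same-number correlations of the other group pairs had mixed signs or were near 0. Alternatives were RLE factors, library totals, DESeq2 1.42.0, no filter, at least 10 counts in every library, only the compared groups, the replicate number as a block, sex from Y-linked genes and Xist, background reads as a covariate, and each library left out. At these totals, genes with under about 10 counts per library are imprecise.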

Additional observations from a re-analysis of the deposited data

Results flagged for a closer look

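In 22 sets of NPmut values, 1 for each member and each signaling gene called in any comparison, a library far from the other 3 was looked for by the gap to its nearest neighbor over the range. For independent normal values, chance flags about 1 in 20 groups. These sets share the same NPmut mice and some genes have few counts, so that rate need not hold here. There were 4 flags: Epha2 in NPmut mouse 4 (0.459 RPKM, below the other 3 at 0.698 to 0.734), Igf1r in NPmut mouse 2 (5.22 RPKM, below 11.7 to 12.8), Axl in NPmut mouse 1 (0.766 RPKM, above 0.362 to 0.395) and Kdr in NPmut mouse 1 (0.0832 RPKM, above 0 to 0.0114).

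In 4 genes NPmut mice departed from the sum of the single-mutant changes by a test of the interaction term in edgeR. The term also holds their lack of pI-pC and moribund stage, which cannot be told apart from the genotype. The term was −3.84 for Tek, −2.89 for Tie1, −2.59 for Grb10 and −1.002 for Nck2. The term of Grb10 passed in all 13 fits that left out a library (−2.80 to −2.42), and that of Nck2 in 4 of 13.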

How the results depend on the processing

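Of 846 alternative values for 38 printed fold changes of members, 794 kept their direction and their side of the DEG thresholds, 35 were DEGs no longer, 3 became DEGs and 14 changed sign. Epha2 was a DEG against control mice in every alternative that tested it. Where a filter was used, that test depended on its high counts in NPmut mice. Tie1 was a DEG against control mice in every alternative. Tek was too, except with background reads as a covariate (log2 fold change −3.34, SE 0.90, adjusted p 0.0567; its other alternatives that kept every library ranged from 2.1e-23).

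Background reads moved with the groups, at 139, 198 and 107 CPM in control, 104, 144 and 62.0 in p53mut, 46.5, 39.2 and 44.5 in NrasG12D, and 18.2, 47.8, 59.8 and 18.3 in NPmut mice. All NPmut mice were below all control and p53mut mice, and the part of background in the results was not tested apart from group. With background reads as a covariate, 2 members were DEGs in NPmut against control mice instead of 6, and 3 against p53mut mice instead of 5. Against p53mut mice Met and Ptk7 lost the call, and their fold changes over alternatives with every library kept were no smaller than 1.17 and 1.02. Against control mice the fold changes lost from the calls were not smaller by more than 0.1, at 1.28 for Flt3, 1.97 for Met, 1.25 for Ptk7 and −3.34 for Tek, and their SEs were larger, at 0.57, 0.62, 0.46 and 0.90. With at least 10 counts required in every library, Epha2 and Tek were not tested, and 1 member was a DEG against NrasG12D mice, 3 against p53mut mice and 1 for the interaction. DESeq2 called 1 member for NrasG12D against control mice. For Flt3 against control mice the call was also lost without a filter (adjusted p 0.111), and for Met likewise (0.0552). The causes were not tested. When each library was left out, the members called ranged from 3 to 6 against control, 2 to 4 against NrasG12D and 3 to 5 against p53mut mice, 1 to 2 for the interaction, and 0 to 0 for each single mutant.

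The log2 fold change of Axl against control mice was 0.0187 with the replicate block, 0.0163 with sex as a term, −0.98 with background as a covariate, and −0.39 to 0.22 on leaving out libraries. That of Epha2 in p53mut against control mice was −0.0186 to 0.97 on leaving out libraries. For Flt3 in NPmut against NrasG12D mice it was −0.0479 with library totals, −0.0019 with only the compared groups, −0.0625 with sex as a term, and −0.31 to 0.20 on leaving out libraries. With the replicate block the members called were 6 in NPmut against control, 3 against NrasG12D and 5 against p53mut mice, 0 for each single mutant and 2 for the interaction, as without it.

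With library totals, the median over all genes in NPmut against control mice moved from 0.01 to −0.11, and 311 of 1096 DEGs were higher, against 413 of 1069; Ptk7 was then at 0.99 and Flt3 at 1.05 (adjusted p 0.0632), and the signs of the 6 members called stayed. Without a filter the median was −0.20 and 1568 genes were DEGs, 542 of them higher. There were 638 DEGs (318 higher) with at least 10 counts in every library, 651 (305 higher) with only the compared groups and 578 (342 higher) with background as a covariate. Of 80 alternative mean levels, 79 moved by less than 1 SD. Epha2 in control mice fell to 0.0402 RPKM less background.

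Each group has 3 or 4 mice. Genes with few counts, such as Epha2 in control mice and Mertk, limit what can be detected. The interaction needs all 4 groups and has no value with only the compared groups. Epha2 was not tested for either single mutant against control mice with only the compared groups.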
